A study of Mus musculus with 29 samples.

Results

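The 10 imprinted growth regulators, chosen by name, were followed across 29 mouse prostates: Nnat, Peg3, Dlk1, H19, Igf2, Mest, Plagl1, Ndn, Grb10 and Peg10. Of these 10 genes, 9 had a named probe on the array, with 14 probes in all. For 8 genes at least 1 probe was detected on at least 1 array, among 10768 genes tested in the series. The arrays carried no probe named H19, and none of the 3 Plagl1 probes was detected on any array. Nnat had been singled out by its own rise in the neuroendocrine tumors against the adenocarcinomas, so its values in tumors are described here without a test.

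An imprinted gene is transcribed mainly from the copy inherited from one parent, because the parental copies carry different DNA methylation marks set in the germ cells. Many such genes act on growth before and after birth, and several lie side by side in domains under one control region. Most of the listed genes are transcribed from the paternal copy, H19 from the maternal copy, and Grb10 from the maternal copy in most tissues but the paternal copy in neurons. The arrays measured total RNA of each gene and did not separate the parental copies.

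All mice were males carrying the TRAMP transgene, in which the androgen-regulated rat probasin promoter drives SV40 large T antigen in prostate epithelium (C57BL/6-tgN (TRAMP)8247Ng). The tumor-bearing groups were 3 OPN-/-TRAMP prostates at 18 wks with palpable neuroendocrine tumors (OPT-tm) and 4 TRAMP prostates at 30 wks with palpable adenocarcinomas (T30). OPN-/-TRAMP mice lack osteopontin through the Spp1 tm1Blh allele. The groups without palpable tumor were 13 OPN-/-TRAMP prostates at 18 wks (OPT18), 5 at 15 wks (OPT15) and 4 TRAMP prostates at 18 wks (T18). The 22 prostates without palpable tumor also carry an early classification. The study derived it by clustering these same arrays on the genes that differed between OPT-tm and T30. Of the 22 prostates, 5 are Early-NE (labelled Ineuntes, 4 OPT18 and 1 OPT15) and 17 are Early-ADC (labelled Reliquia, 9 OPT18, 4 OPT15 and 4 T18). OPT-tm and T30 differ in age, genotype and tumor type at once, and these cannot be told apart in a comparison of those groups.

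Values are log2 signals after quantile normalization over all 29 arrays, 1 prostate per array. A probe was taken as detected where its detection p-value lay under 0.01. Between 38.7% and 51.8% of all probes were detected per array, with 47.1% to 51.8% on chips 1 and 2 and 38.7% to 41.9% on chips 3 and 4. OPT-tm lay on chips 1 to 3, T30 and T18 had 1 prostate on each of the 4 chips, and the Early-NE prostates lay on chips 2 and 4. A gene was called where limma gave an adjusted p under 0.05 and the change was at least 2-fold, that is, at least 1 on the log2 scale.

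Neuroendocrine markers were high in OPT-tm, as the label states. Syp, synaptophysin of secretory vesicles, had 13.78, 13.89 and 14.07 log2 signal in OPT-tm, between 10.87 and 12.00 in Early-NE, between 8.33 and 8.80 in T30 and between 9.51 and 10.70 in Early-ADC. The epithelial keratin Krt8 averaged 11.54 ± 0.24 in OPT-tm (SD, n = 3), 15.09 ± 0.21 in T30 (SD, n = 4) and 14.84 ± 0.12 in T18 (SD, n = 4). In OPT-tm against OPT18, 10 of 11 tested neuroendocrine markers were called higher, and 6 of 8 luminal, 6 of 8 basal, 8 of 9 smooth muscle, 8 of 9 skeletal muscle and 6 of 7 seminal vesicle markers were called lower. Of 11 fibroblast markers 1 was called higher and 2 lower. In such bulk prostates, fewer cells of a type and less RNA per cell cannot be told apart, which holds for every value that follows.

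Nnat encodes neuronatin, a small membrane proteolipid of developing neurons and endocrine cells. The gene lies on chromosome 2 inside the intron of Blcap. The 3 OPT-tm prostates had 14.86, 15.43 and 14.49 log2 signal of Nnat. The 4 T30 prostates had 7.94, 7.74, 7.87 and 7.97, and Nnat was detected in none of them. The 5 Early-NE prostates had 11.97, 12.58, 10.83, 10.95 and, at 15 wks, 10.54, and Nnat was detected in all 5. In the 17 Early-ADC prostates the lowest, median and highest values were 7.87, 8.15 and 9.90, with detection in 6 of 17. These 6 were 4 OPT18 prostates, at 9.90, 9.44, 8.93 and 9.56, and 2 OPT15 prostates, at 8.79 and 8.69. The 4 T18 prostates had 8.25, 7.93, 8.001 and 8.12, with no detection.

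The order of Nnat levels was thus OPT-tm, Early-NE, Early-ADC (which includes T18) and T30, with no overlap between OPT-tm and Early-NE (24.6% of all genes lay higher in OPT-tm without overlap) or between Early-NE and Early-ADC, and with overlap between T30 and both Early-ADC and T18. OPT-tm lay above T30 by at least 72.0-fold when T30, without detection, is set to the lowest detected signal of each array, in the contrast by which Nnat was chosen. On the log2 scale OPT-tm lay above OPT18 by 5.34, above Early-NE by 3.55, and Early-NE above Early-ADC by 2.90. The second Nnat probe had 11.74, 12.51 and 11.65 in OPT-tm, with no detection in T30, T18 or any Early-ADC prostate. In Early-NE it had 9.82, 9.96, 9.17, 8.93 and 8.35, detected in 3 of 5, and the lowest of these lay under the highest Early-ADC value of 8.43, so that with this probe the classes overlapped. Its difference of OPT-tm over OPT18 was 3.56, against 5.34 with the first probe. Within chips 1, 2 and 3 the Nnat difference of OPT-tm over OPT18 lay between 4.93 and 5.96.

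The RefSeq promoter table (GRCm38.p6) held windows for 8 of the 10 genes. The 250 bases before the start of Nnat, Ndn and Peg3 are shown, because Nnat and Ndn share a sequence there and Peg3 was detected only in OPT-tm. Capitals mark the letters GCATGCGC on either strand, the core of the palindrome that the factor NRF1 recognises, and the sequences run 5′ to 3′ on the gene's strand.
Nnat, chr2:157559828-157560077, + strand: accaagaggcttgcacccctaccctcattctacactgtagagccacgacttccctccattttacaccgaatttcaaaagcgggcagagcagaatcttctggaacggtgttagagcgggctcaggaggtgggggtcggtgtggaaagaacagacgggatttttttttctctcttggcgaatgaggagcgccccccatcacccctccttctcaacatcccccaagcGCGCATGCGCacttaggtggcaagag
Ndn, chr7:62348027-62348276, + strand: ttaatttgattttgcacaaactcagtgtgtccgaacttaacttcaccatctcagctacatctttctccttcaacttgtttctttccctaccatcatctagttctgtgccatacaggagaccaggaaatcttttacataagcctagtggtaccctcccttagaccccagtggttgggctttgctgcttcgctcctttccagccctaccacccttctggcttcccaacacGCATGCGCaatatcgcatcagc
Peg3, chr7:6730420-6730669, - strand: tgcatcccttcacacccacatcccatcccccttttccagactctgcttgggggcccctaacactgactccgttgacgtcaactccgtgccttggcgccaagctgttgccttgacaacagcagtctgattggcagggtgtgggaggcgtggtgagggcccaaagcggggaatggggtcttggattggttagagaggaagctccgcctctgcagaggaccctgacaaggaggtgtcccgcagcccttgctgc
The 8 genes had 14 windows, of which 2, those of Nnat and Ndn, held the motif. It was present in 2.26% of all 32841 windows of this length. In Nnat the motif is read on both strands in overlap, and it begins 24 bases before the start for the forward reading, as against 22 bases in Ndn. None of the 5 genes most like Nnat, named further on, held it. The Nnat window had 12 CG dinucleotides, 0.64 of the number its base composition gives, the Ndn window 5 and 0.41, the Peg3 window 8 and 0.35, and the median over all windows was 0.37. A match describes the letters only.

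**Figure D1:**
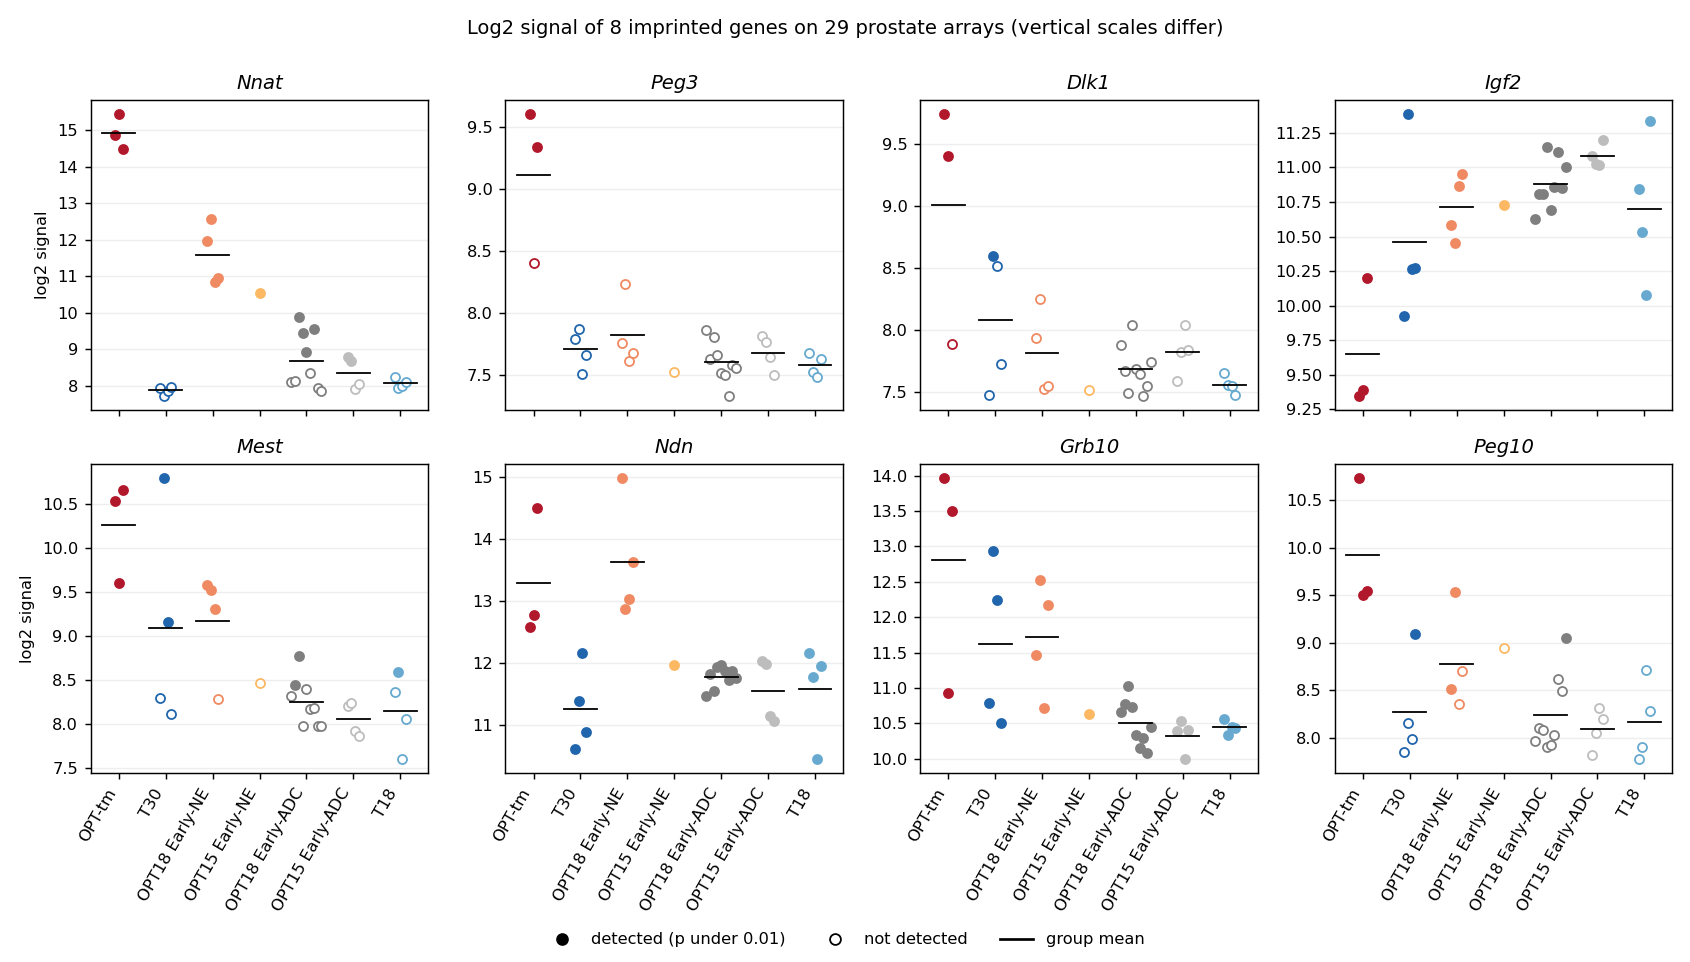
Log2 signal (vertical axis, own scale per gene) of the 8 genes detected on at least 1 array, by group (horizontal axis), 1 point per prostate, filled where detected, with a line at the mean of each group of more than 1 prostate. Nnat falls in steps of OPT-tm at 14.49 to 15.43, Early-NE at 10.54 to 12.58, and the other groups at 7.74 to 9.90, while Igf2 is lowest in OPT-tm.

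The question put to the other listed genes was whether they changed with Nnat in the neuroendocrine tumors. In OPT-tm against OPT18, 5 of the 7 tested members were called higher and 1 lower, where 25.8% of all 10768 genes were called, 12.3% higher and 13.6% lower. Peg3 was detected on 2 arrays, both OPT-tm, and Dlk1 on 3 arrays, 2 OPT-tm and 1 T30, so both passed the detection filter only through groups where they were high, and the count is given as a description. Those higher were Peg3, Dlk1, Mest, Grb10 and Peg10, Igf2 was lower, and Ndn was not called.

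Peg3 encodes a zinc finger transcription factor on chromosome 7. Its OPT-tm signals were 9.60, 8.40 and 9.34, detected in the first and the last. In the 13 OPT18 prostates the lowest, median and highest signals were 7.33, 7.62 and 8.23, and Peg3 was detected in none of these, nor in any other prostate of the series. All 3 OPT-tm prostates lay above all OPT18 prostates, as did 20.7% of all genes. Peg3 was at least 1.34-fold higher against the lowest detected signals (limma adjusted p = 1.93e-06, and 4.09e-06 with no detection filter).

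Dlk1 encodes an EGF-repeat transmembrane protein of progenitor cells on chromosome 12. The OPT-tm prostates had 9.74, 9.40 and 7.88, with no detection in the last, against 7.47, 7.67 and 8.25 as the lowest, median and highest of OPT18, where it was detected in none. Of the 3 OPT-tm prostates 1 therefore lay inside the OPT18 range. Dlk1 was at least 1.24-fold higher (adjusted p = 0.000182, and 0.00037 with no detection filter). Without the OPT-tm prostate on chip 1 it was not called.

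Mest, a paternally expressed hydrolase-like gene of mesoderm on chromosome 6, had 10.52, 9.60 and 10.66 in OPT-tm, against a lowest, median and highest signal of 7.97, 8.32 and 9.58 in OPT18. The groups did not overlap, although the highest OPT18 value nearly met the lowest OPT-tm value. The difference was 1.73 ± 0.33 (SE, adjusted p = 0.000141). Mest was detected in all 3 OPT-tm and in 5 of 13 OPT18 prostates, so the OPT18 values lie largely near background. A second Mest probe, detected in 2 of 13 OPT18 prostates, was also called, and the other one gave 0.71, under 2-fold.

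Peg10, a gene of retrotransposon origin on the same chromosome, had 10.73, 9.50 and 9.55 in OPT-tm and 7.90, 8.36 and 9.54 as the lowest, median and highest signals of OPT18. The OPT-tm prostates were all detected and 3 of 13 OPT18 prostates were. The difference was 1.52 ± 0.30 (SE, adjusted p = 0.000196), with 1 Early-NE prostate, at 9.54, inside the OPT-tm range.

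Grb10 encodes an adaptor that dampens signaling by the insulin and IGF receptors. Its OPT-tm signals were 13.97, 10.94 and 13.51, against 10.08, 10.72 and 12.52 as the lowest, median and highest of OPT18. Of the 3 OPT-tm prostates 2 lay above every OPT18 prostate and 1 lay among them. The difference was 1.93 ± 0.52 (SE, adjusted p = 0.00328). Without the OPT-tm prostate on chip 1 it was 1.34, with adjusted p = 0.0554, and on chip 2 the OPT-tm prostate lay 0.18 below the OPT18 mean (a difference of -0.18).

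Ndn encodes necdin, a growth suppressor of neurons in the Prader-Willi domain of chromosome 7. It had 12.58, 12.78 and 14.49 in OPT-tm and 11.47, 11.88 and 14.99 as the lowest, median and highest of OPT18, and the difference of 0.93 ± 0.57 was not called (SE, adjusted p = 0.163). Within OPT18, the 4 Early-NE prostates had 14.99, 12.88, 13.03 and 13.63, and the 9 Early-ADC prostates lay between 11.47 and 11.98. These classes did not overlap, as was so for 4.85% of all genes in that direction. OPT-tm lay 1.51 above the 9 Early-ADC prostates of OPT18, a description, since the classes were made from these arrays and the prostates set aside were the ones high in Ndn.

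Igf2, the fetal growth factor that signals through the IGF1 receptor, went the other way. It had 9.35, 9.39 and 10.20 in OPT-tm and 10.45, 10.85 and 11.15 as the lowest, median and highest of OPT18. All OPT-tm prostates lay below all OPT18 prostates, as did 23.1% of all genes. Igf2 fell by 1.18 on the log2 scale, with an SE of 0.16 and adjusted p = 3.53e-06, and was detected on all 29 arrays.

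**Figure D2:**
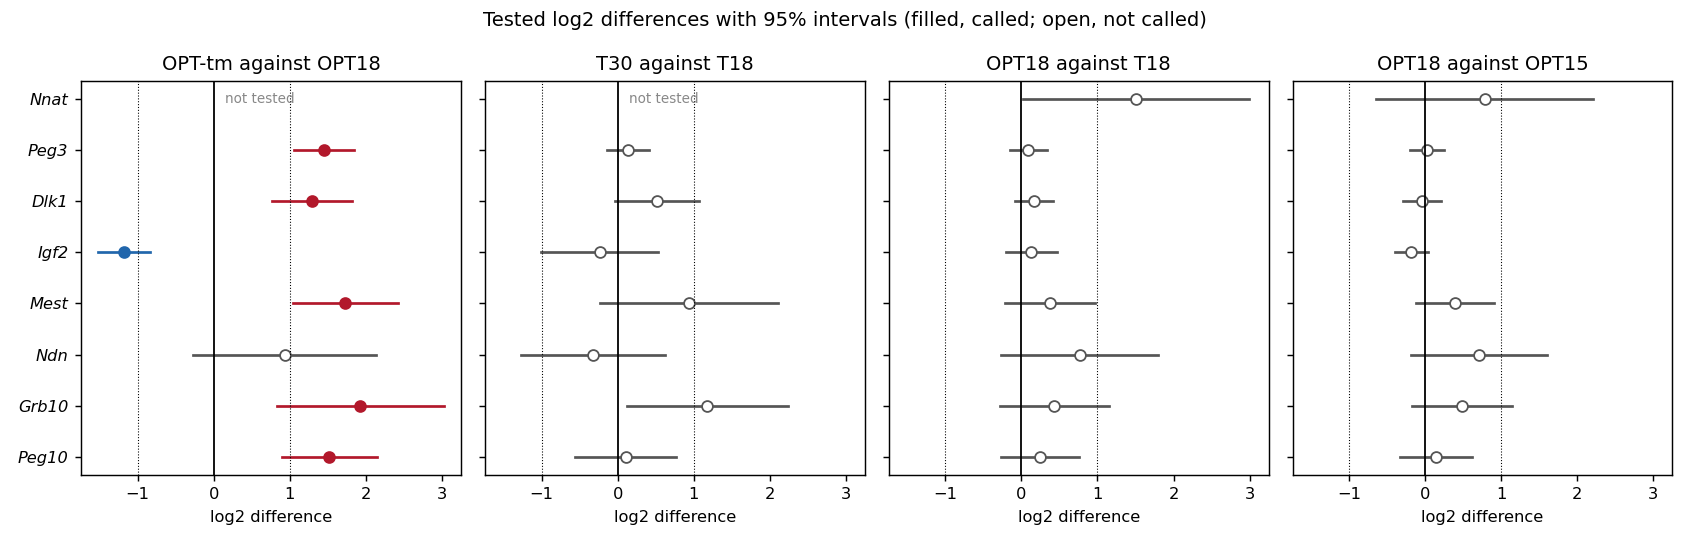
Log2 difference (horizontal axis) with its 95% interval for each tested gene (rows) in the 4 tested comparisons (panels), filled where called, with dotted lines at 2-fold. Calls appear in OPT-tm against OPT18 only, with 5 genes higher and Igf2 lower, and the other 3 panels hold open points. Among those higher, Peg3 and Dlk1 passed the detection filter only through tumor groups where they were high. They were detected in no OPT18 prostate, so their plotted sizes rest on background.

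The adenocarcinomas of TRAMP mice were set against T18 in the same way. limma called 0 of the 7 tested members in T30 against T18, where 1.49% of all genes were called, and 1 member, Grb10, had an unadjusted p under 0.05, as had 17.6% of all genes. Grb10 had 10.78, 12.94, 12.25 and 10.51 in T30 and 10.56, 10.33, 10.45 and 10.43 in T18. Of the 4 T30 prostates 2 thus lay far above T18 and the others next to it, and the difference was 1.18 ± 0.47 (SE, adjusted p = 0.240). Mest split the T30 prostates likewise, with 10.79 and 9.16 in the same 2 mice and 8.30 and 8.11 in the others, against 8.36, 8.59, 7.60 and 8.05 in T18. Its difference was 0.94 ± 0.52 (SE, adjusted p = 0.391). Mest was detected in 2 of 4 T30 and 1 of 4 T18 prostates. Dlk1 had 8.60 and 8.51 in the same 2 T30 mice and 7.47 and 7.72 in the others. It was detected in 1 T30 prostate, at 8.60, and in no T18 prostate. Peg3 was detected in neither group, and the other differences were 0.11 for Peg10, -0.23 for Igf2 and -0.32 for Ndn.

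Whether the tumor difference itself depended on genotype was tested as the OPT-tm against OPT18 difference minus the T30 against T18 difference. Of the 7 members 2 were called, both higher in OPN-/-TRAMP, where 23% of all genes were called. Peg10 gave 1.41 ± 0.46 (SE, adjusted p = 0.014). It was detected in 3 of 13 OPT18, 1 of 4 T30 and 0 of 4 T18 prostates, so its size rests largely on background. Peg3 was detected in none of OPT18, T30 and T18, so the size of its difference is not measured (adjusted p = 0.000179). It passed the detection filter through OPT-tm alone, so its call and the count of 2 are given as a description. Igf2 gave -0.95 ± 0.35 (SE, adjusted p = 0.0299), under 2-fold. For Grb10 (0.75, adjusted p = 0.465), Mest (0.79, adjusted p = 0.309), Dlk1 (0.77, adjusted p = 0.103) and Ndn (1.26, adjusted p = 0.224) a difference between the genotypes was not detected. Peg10 lost its call without the OPT-tm prostate on chip 1 (1.01, adjusted p = 0.0824). Mest gained one without the T30 prostate on chip 2 (1.36, adjusted p = 0.0328), and Dlk1 without the OPT-tm prostate on chip 3 (1.33, adjusted p = 0.00111). The prostate left out for Dlk1 was the OPT-tm prostate without detection. Dlk1 was also detected in no OPT18 or T18 prostate and in 1 of 4 T30 prostates, so its sizes rest on background and are not measured. Genotype goes with tumor type and with an age gap here, since the TRAMP tumors were adenocarcinomas taken at 30 wks, and these cannot be told apart.

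Set directly against T30, the OPT-tm prostates did not overlap in 4 of 8 members, all higher, where 24.3% of all genes were higher and 24.5% lower with no overlap. These 4 were Nnat, Ndn (by 2.02), Peg10 (by 1.65) and Peg3 (at least 1.28-fold). The difference was 1.18 for Grb10, 1.17 for Mest, 0.93 for Dlk1 and -0.81 for Igf2, each with overlap. Within chip 2, Grb10 (-2.00) and Mest (-1.19) were lower in OPT-tm. This contrast chose Nnat, and Peg3 passed the detection filter through OPT-tm alone, so the count of 4 is given as a description. No test was made.

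Before a tumor was palpable, Nnat by its first probe, and no other member, separated Early-NE from Early-ADC without overlap, where 2.55% of all genes did so in that direction. The classes came from clustering the same arrays on genes that differed between OPT-tm and T30, the contrast by which Nnat was chosen. A split by Nnat was thus favoured in advance, and these are descriptions. The difference of 2.90 for Nnat ranked 7th of 10768 genes, and those of Ndn (1.62), Grb10 (1.06), Mest (0.85) and Peg10 (0.62) ranked 83rd, 188th, 281st and 451st. Ndn averaged 13.30 ± 1.11 in Early-NE and 11.68 ± 0.43 in Early-ADC, the 15 wks old Early-NE prostate lying at 11.98 (SD, n = 5 and 17). Grb10 averaged 11.50 ± 0.85 and 10.45 ± 0.26 in the same order, and Mest was detected in 3 of 5 Early-NE and 3 of 17 Early-ADC prostates. Peg3 and Dlk1 were detected in no prostate of either class. Igf2 differed by -0.17, with overlapping ranges.

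The genotypes at 18 wks, without a palpable tumor, were compared as OPT18 against T18. limma called 0 of 8 members, where 0.0279% of all genes were called, and 1 member, Nnat, had an unadjusted p under 0.05, as had 6.74% of all genes. Nnat was detected in 8 of 13 OPT18 prostates, with 7.87, 9.44 and 12.58 as the lowest, median and highest signals, and in 0 of 4 T18 prostates. The difference was 1.50 ± 0.71 (SE, adjusted p = 0.734), at least 1.80-fold. With only the Early-ADC prostates of OPT18 it was 0.62. Peg3 and Dlk1 were detected in neither group, and for the other 5 members the difference lay between 0.13 for Igf2 and 0.76 for Ndn, with adjusted p between 0.801 and 0.892.

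Age within OPN-/-TRAMP was examined in OPT18 against OPT15. limma called 0 of 8 members and 0% of all genes, and no member but 21% of all genes had an unadjusted p under 0.05. Nnat gave 0.78 ± 0.68 (SE, adjusted p = 0.514) and Ndn 0.71 ± 0.43 (SE, adjusted p = 0.346), and the 95% interval for Nnat ran from -0.64 to 2.21.

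The members' domains gave further genes to compare, from a list of 63 other imprinted genes of which 34 were tested. In OPT-tm against OPT18, 11 of the 34 were called higher and 6 lower, where 12.3% of all genes were called higher and 13.6% lower, with a median of 0.12 against -0.01 over all genes. Of the 10 tested genes expressed from the paternal copy 5 were higher and 0 lower, and of the 20 expressed from the maternal copy 4 were higher and 6 lower, to be read against the same shares of all genes. The 11 and the 5 higher include Usp29, which passed the detection filter through OPT-tm alone, so these counts are given as a description. The paternally expressed genes with the largest changes were Mkrn3, a ring finger gene linked to puberty timing (2.21), Nap1l5, a relative of nucleosome assembly proteins (2.13), Inpp5f, an inositol phosphatase (1.67), and Snrpn, which encodes a splicing protein (1.64). The maternally expressed ones were Asb4 (3.22), the matrix proteoglycan Dcn (-2.78), the cell cycle inhibitor Cdkn1c (2.62) and Ppp1r9a, which encodes the actin-binding neurabin (2.37). Of 4 genes whose expressed copy depends on transcript or tissue, Ddc (4.46) and Gnas (1.27), the stimulatory G protein gene, were called.

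Genes in the members' domains follow, chosen with their values known. Around Nnat, Blcap, a gene first described in bladder cancer, had 12.72, 13.07 and 13.21 in OPT-tm as lowest, median and highest, and 11.61 ± 0.25 in OPT18 (SD, n = 13). It rose by 1.39 ± 0.15 (SE, adjusted p = 2.87e-07), while its T30 against T18 difference was -0.14. Blcap averaged 11.75 ± 0.18 in Early-NE and 11.64 ± 0.25 in Early-ADC, a difference of 0.10 where that of Nnat was 2.90.

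In the Peg3 domain, Usp29, which starts beside Peg3 and is read the other way, was detected in 2 of 3 OPT-tm prostates and in 0 of 13 OPT18 prostates. It was at least 1.55-fold higher (adjusted p = 1.43e-05). Like Peg3 it passed the filter through OPT-tm alone, so its call is given as a description. In the domain of Ndn, Snrpn rose by 1.64 ± 0.20 (SE, adjusted p = 8.33e-07) and Mkrn3 by 2.21 ± 0.26 (SE, adjusted p = 4.85e-07), while Ube3a (0.05) and Atp10a (-0.16) were not called. Snrpn also fell in T30 against T18, to 11.83 ± 0.04 in T30 against 12.89 ± 0.20 in T18 (SD, n = 4 each, limma adjusted p = 0.00299). Near Peg10, Asb4 and Ppp1r9a rose, Pon3, a paraoxonase, fell by 1.54, and its relative Pon2 was not called (-0.64). In the domain of Dlk1 the deiodinase gene Dio3 was not called (-0.31).

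Next to Grb10 lies Ddc, the aromatic amino acid decarboxylase of amine-producing cells, which is also on the neuroendocrine list. On its other side Cobl was not called (0.47). Ddc averaged 15.70 ± 0.04 in OPT-tm (SD, n = 3), 7.91 ± 0.16 in T30 (SD, n = 4), 12.86 ± 1.02 in Early-NE (SD, n = 5) and 10.04 ± 0.68 in Early-ADC (SD, n = 17). It rose by 4.46 ± 0.78 in OPT-tm against OPT18 (SE, adjusted p = 5.69e-05). In the domain next to Igf2, Cdkn1c rose by 2.62 ± 0.37 (SE, adjusted p = 5.9e-06), while Phlda2, a placental growth restrictor, was at least 1.80-fold lower (adjusted p = 8.54e-07) and Slc22a18 fell by 1.43. In the same stretch Nap1l4 (0.75), Tssc4 (0.20), Cd81 (-0.14), Th (-0.26) and Kcnq1 (-0.37) were not called. Igf2r, the receptor that clears IGF2, fell by 1.31 ± 0.13 (SE, adjusted p = 1.1e-07).

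Of 14 tested IGF ligands, receptors and adaptors 1 was called higher and 2 lower in OPT-tm against OPT18, where 25.8% of all genes were called, the share against which the following counts also stand. Irs2, a docking protein of these receptors, was higher by 1.61, and Grb7, an adaptor related to Grb10, fell by 2.82, the other being Igf2r. Of 7 IGF binding proteins Igfbp3 (1.32) and Igfbp5 (1.05) were higher and Igfbp6 was lower (-2.58). Among 8 genes that keep methylation imprints, Dnmt1, the maintenance DNA methyltransferase, was higher by 1.54 and its partner Uhrf1 by 1.70, and 6 were not called. Of 2 RNA-binding proteins of Igf2 and H19, Elavl1 was lower (-1.86). None of these groups had a call in T30 against T18, where 2 of the 34 other imprinted genes were called, Snrpn (-1.06) and Rasgrf1 (-1.76), both lower.

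**Figure D3:**
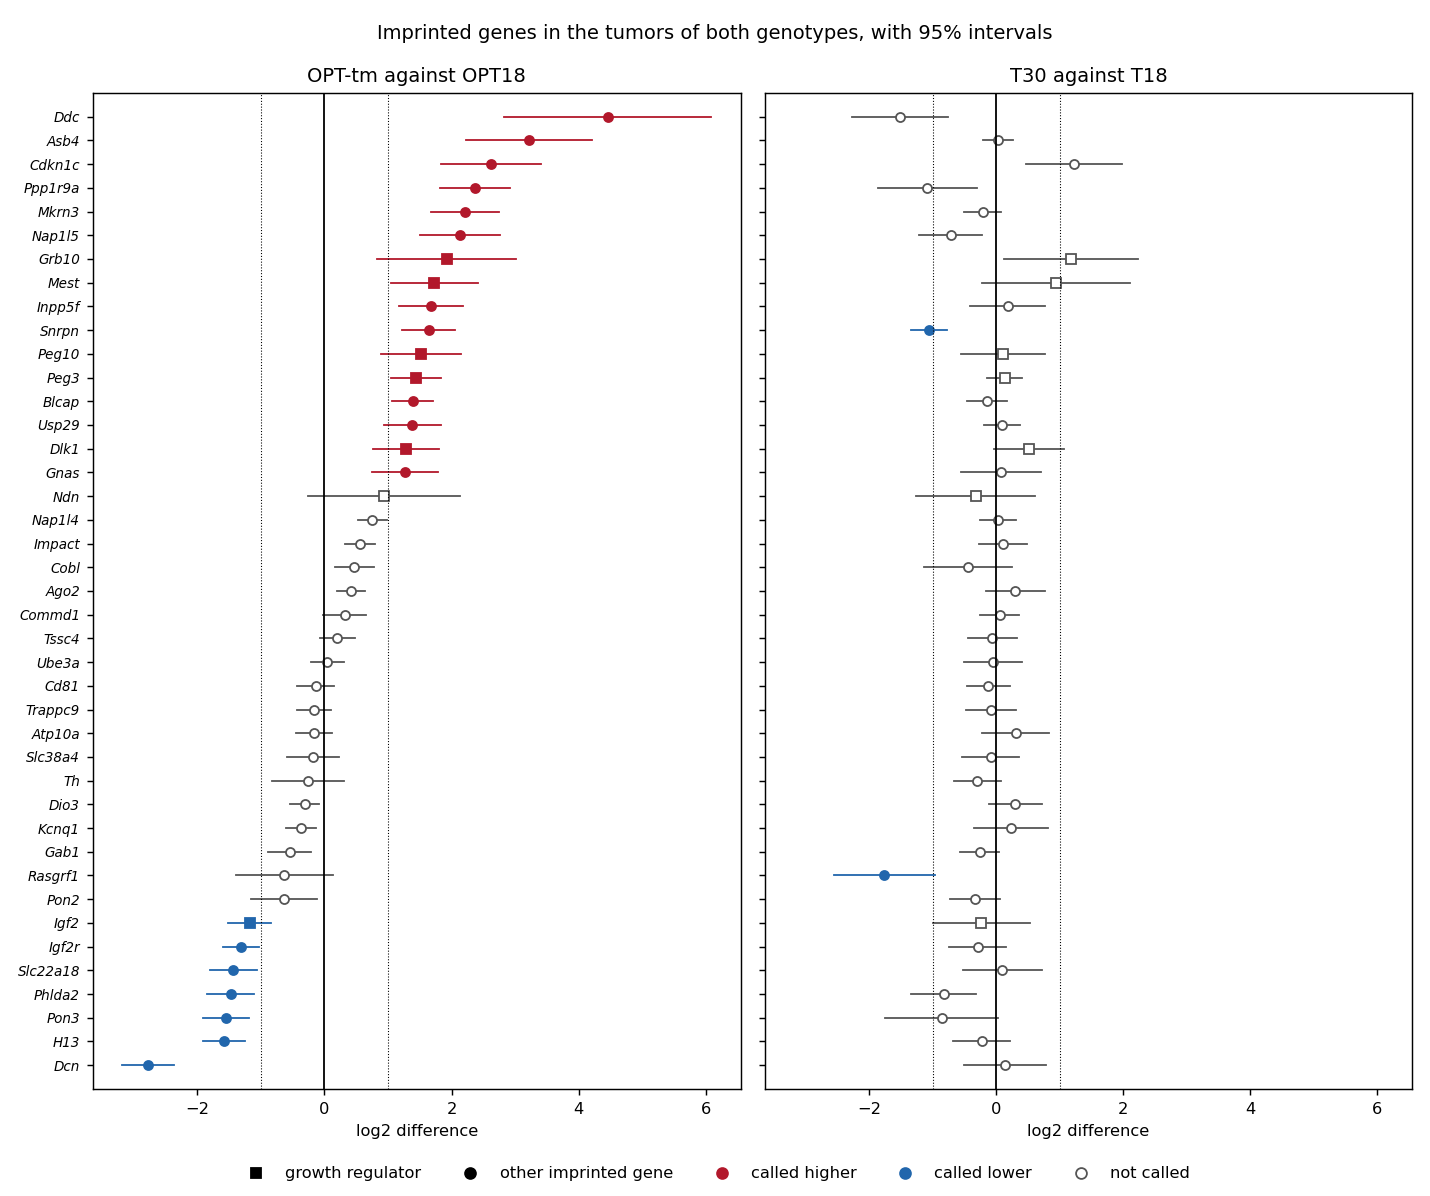
Log2 difference with its 95% interval (horizontal axis, same scale in both panels) for 41 tested imprinted genes (rows, ordered by the left panel), without Nnat, in OPT-tm against OPT18 (left) and T30 against T18 (right). On the left 16 genes are called higher and 7 lower, the extremes being Ddc at 4.46 and Dcn at -2.78, and on the right Snrpn and Rasgrf1 are called lower. Among those higher, Peg3, Dlk1 and Usp29 passed the detection filter only through tumor groups where they were high.

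Over the 29 arrays the 5 genes whose log2 signals followed Nnat most closely, members left out, were Syt16 (Pearson r = 0.990), Scg3 (0.986), Lrrc24 (0.986), Gdap1l1 (0.984) and Clstn3 (0.983). Scg3 is a granin of secretory granules, and Syt16 and Clstn3 belong to families of synaptic membrane proteins. These arrays share chips and fall into groups that differ in all of these genes, so r describes likeness of pattern only. Within the 17 Early-ADC arrays r was 0.904 for Syt16, 0.890 for Scg3, 0.782 for Lrrc24, 0.729 for Gdap1l1 and 0.836 for Clstn3. The members were less like Nnat over the 29 arrays, with r of 0.78 for Peg3, 0.76 for Peg10, 0.70 for Ndn, 0.67 for Mest, 0.62 for Grb10, 0.59 for Dlk1 and -0.58 for Igf2, and within Early-ADC all 7 lay between -0.24 and 0.47.

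The mean log2 signal of the 11 neuroendocrine markers had the same order of groups as Nnat. It lay between 12.67 and 12.99 in OPT-tm, between 10.18 and 11.61 in Early-NE, between 8.65 and 10.06 in Early-ADC and between 8.15 and 8.31 in T30. Within OPT-tm the prostate with the lowest marker mean, 12.67, had the highest Nnat, 15.43. By the log2 of the summed signal of these markers the same prostate was the highest, at 17.37 against 17.33 and 17.35. The part of this marker mean in the members' differences was not tested. The T30 prostates high in Grb10 and Mest, at 8.31 and 8.25, did not differ from the other T30 prostates, at 8.15 and 8.24, by more than 0.16 in this level. The same 2 prostates had the highest fibroblast means of T30, at 12.42 and 11.68 against 11.19 and 11.07 in the others, and the highest means of 8 endothelial markers, at 11.33 and 10.41 against 9.82 and 9.74. Their means of 8 basal markers were 11.82 and 11.67, against 10.83 and 11.16, and those of 8 luminal markers 11.24 and 12.18, against 12.78 and 12.41. The part of these markers in the Grb10 and Mest values was not tested. The mean level of the 11 fibroblast markers was 9.88 to 10.60 in OPT-tm, 11.07 to 12.42 in T30, 10.05 to 10.57 in OPT18 and 9.74 to 10.81 in T18.

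**Figure D4:**
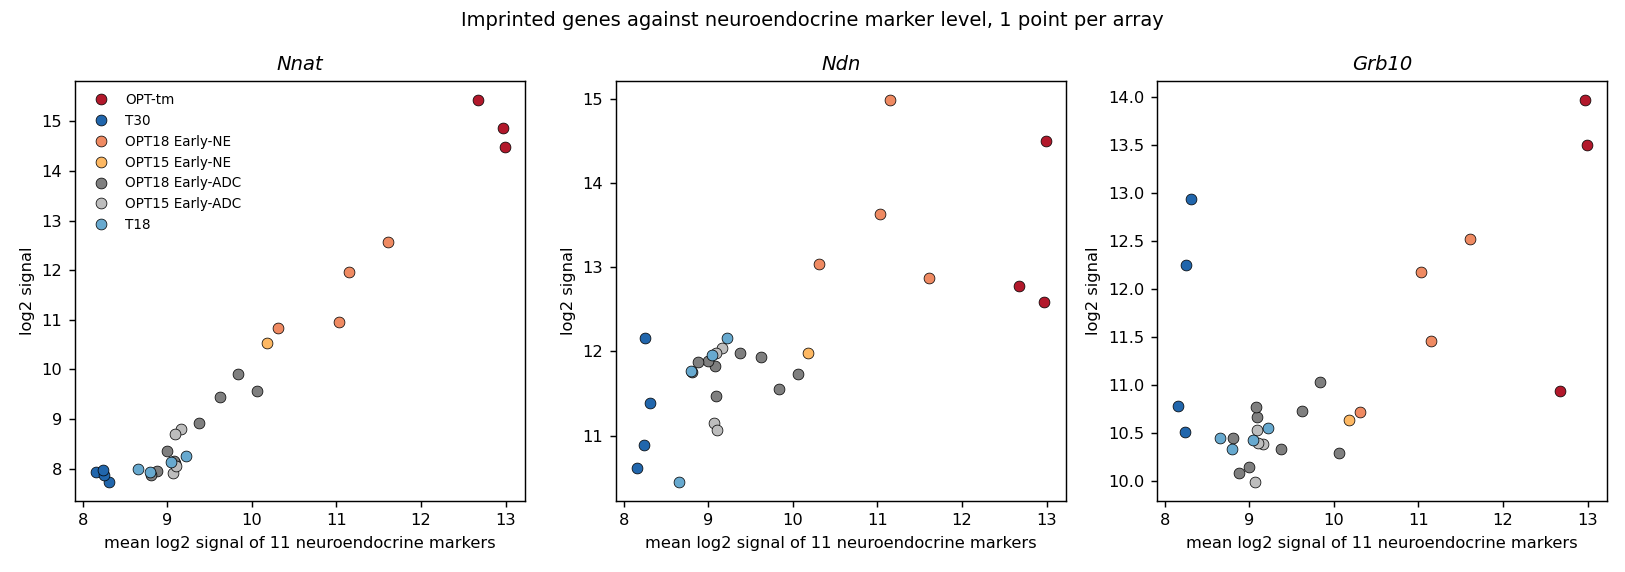
Log2 signal of Nnat, Ndn and Grb10 (vertical axes) against the mean log2 signal of 11 neuroendocrine markers (horizontal axis), 1 point per prostate, colored by group. Nnat is higher in groups of higher marker level. Within OPT-tm the prostate with the highest Nnat (15.43) is the lowest in this mean (12.67) and the highest in log2 of summed marker signal (17.37). Ndn is as high in Early-NE (up to 14.99) as in OPT-tm (up to 14.49). Grb10 is high in 2 T30 prostates (12.94 and 12.25) at low marker level, the 2 with the highest fibroblast, endothelial and basal means of T30.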

How the data were processed

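Prostate RNA was hybridized to Illumina MouseRef-8 v2.0 arrays, 1 per mouse. According to the methods and the labels, the authors collected intensity values with BeadStudio and processed them with lumi (log2 transformation and robust spline normalization). The deposited files hold, per probe and array, a signal intensity, a detection p-value and the authors' normalized log2 values. Here the deposited signal intensity was log2 transformed and quantile normalized over 29 arrays without background correction (R 4.3.3, limma 3.58.1), because robust spline normalization was not installed. The authors' log2 values served as an alternative. A probe entered if any array detected it (p-value under 0.01), and each gene was represented by its most often detected probe, ties going to the higher mean, which left 10768 genes. Probe names came from the platform annotation table, where 23978 of 25697 probes had 1 gene and 1719 none. Gene names were set beside RefSeq by Entrez number, and 23962 probes matched.

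limma's lmFit and eBayes were run on the arrays of the groups compared, with Benjamini-Hochberg adjustment over all 10768 genes. All arrays came from separate mice, and their number limits the precision. Where a gene was detected on no array of a group, the fold is a bound: the mean log2 signal of the other group was set against the gene's signal, raised on each array to the lowest detected signal where it lay under it, and averaged. The members and gene lists were chosen with earlier results of these data known. Genes named are all members with every probe, up to 4 called genes of each list with the largest change, the 5 genes with the highest Pearson r with Nnat, Blcap and Ddc as neighbours, and Syp. Krt8, Usp29, Pon3, Phlda2, Slc22a18 and the domain genes that were not called were added after their values were seen. No test was made of Nnat in any comparison with tumors, of OPT-tm against T30, or of the early classes. The alternatives were the authors' values, normexp with an offset of 16 (neqc), equal array medians, other detection filters, other probes, a fit of all 29 arrays, chip as a block or within chips, trend and robust eBayes, Early-ADC prostates alone, and each mouse left out. The procedure was tested on simulated data. Plots used matplotlib 3.10.9 (Python 3.11.15). The study's text counts fewer OPT18 prostates than the labels, and the labels were followed.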

Additional observations from a re-analysis of the deposited data

Results flagged for a closer look

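The tumor difference of OPN-/-TRAMP, OPT-tm against OPT18, minus that of TRAMP, T30 against T18, was called in 2 of the 7 tested members, where 23% of all genes were called, and Igf2 passed the adjusted p but not 2-fold. Genotype, tumor type and age cannot be told apart in it. Peg3 gave 1.31 on the log2 scale (limma adjusted p = 0.000179), with means of 9.11 in OPT-tm, 7.67 in OPT18, 7.71 in T30 and 7.58 in T18. But it was detected on 2 OPT-tm arrays alone, so 3 of these means are background and the size is not measured. Since Peg3 passed the detection filter through those arrays alone, its call and its place in the count are given as a description. Peg10 gave 1.41 (adjusted p = 0.014), with means of 9.93, 8.41, 8.28 and 8.17 in that order of groups. The last 3 of these means lie largely at background, with detection in 3 of 13, 1 of 4 and 0 of 4 prostates. Igf2 gave -0.95 (adjusted p = 0.0299), under 2-fold, with means of 9.65, 10.83, 10.46 and 10.70. Peg3 kept its call with each of the 11 mice of OPT-tm, T30 and T18 left out in turn, Peg10 lost it without the OPT-tm prostate on chip 1, and Igf2 was called (-1.01 to -1.22) without the OPT-tm prostate on chip 3, without each T30 prostate but that on chip 2, and without the T18 prostate on chip 4 (-1.16). No member had a prostate far from the others of its group, over 40 sets of 4 to 9 values looked at. OPT-tm, with 3 prostates, was too small for this, and there Grb10 had 10.94 beside 13.97 and 13.51, and Dlk1 7.88 beside 9.74 and 9.40.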

How the results depend on the processing

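Every called member of OPT-tm against OPT18 kept its call under all settings except Dlk1 and Grb10 without the OPT-tm prostate on chip 1 and Mest with its least bright probe. Ndn passed the threshold with Early-ADC prostates alone as the reference, which is no test, since that class was made from these arrays. The second Nnat probe gave 3.56 in place of 5.34. Peg3, detected on 2 arrays, gave no value where detection on at least 3 was asked. With 1 mouse left out, 4 to 6 members were called there. The neqc correction gave larger differences for low signals, such as 2.84 for Mest and 2.62 for Peg10, each called.

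For T30 against T18, 160 genes were called, 83 with equal array medians and 386 with 29 arrays in one fit. With 1 mouse left out it was 91 (T30 on chip 3) to 308 (T30 on chip 1), and 105 without the T18 prostate on chip 4. For OPT18 against T18 the fit of 29 arrays called 27 genes in place of 3, and 1 member, Nnat (1.50, adjusted p = 0.0238, over the alternatives 0.0238 to 1). That fit held the early classes as separate groups, so the gap between them did not count as spread. Since the classes were made from these arrays, its calls are no test. For OPT18 against OPT15 the fit of 29 arrays called 2 genes in place of 0, and leaving out 1 mouse gave 0 to 12 (OPT15 on chip 2). In the difference between genotypes, leaving out 1 mouse, an alternative chosen after seeing the data, gave 1 called member (OPT-tm on chip 1) to 4 (OPT-tm on chip 3), and Igf2 was called with the authors' values (-1.06) and neqc (-1.21). The causes were not tested.

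Within single chips the sign of a called member turned for Grb10 on chip 2 in OPT-tm against OPT18 (-0.18). In fits over all chips signs turned for small differences that were not called. These were Peg10 in T30 against T18 (-0.166 to 0.291 with a mouse left out), and, in OPT18 against T18, Mest with its second probe (-0.0352) and Igf2 (-0.0756 to 0.343 with a mouse left out). In OPT18 against OPT15 they were Peg3 (-0.109 with equal medians, -0.0547 with chip as a block, -0.0774 in Early-ADC, -0.0174 to 0.0602 with a mouse left out), Igf2 (0.0618 with equal medians) and Dlk1 (-0.0980 to 0.0335 with a mouse left out). No paired analysis was possible because each mouse has its own number and no group shares one with another. T30 and T18, with 1 prostate each on 4 chips, were compared with chip as a block, which called 120 genes and 0 members, and within chips Grb10 was higher on 4 of 4. Signals near background, as for Peg3, Dlk1, Mest and Peg10 outside the tumors, understate folds, and chips 3 and 4 detected fewer probes.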
